A study of Homo sapiens with 6 samples.

Results

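The expression of 40 genes of the lysosome was examined in MDA-MB-231 cells, a long-established line of human triple-negative breast cancer cells, after treatment with mitocurcumin, a mitochondria-targeted derivative of the plant polyphenol curcumin. The genes were chosen by name: the 3 MiT/TFE transcription factors, 14 subunits of the vacuolar proton pump (V-ATPase), and 23 hydrolases and other proteins of the lysosome. Each of the 40 was found once, under its own symbol, among the 58656 gene rows of the table, and all 40 passed the filter on low counts, which left 16481 genes. One group of 3 libraries came from cells given mitocurcumin at 5 µM for 9 hours, and the other group of 3 libraries from cells given the DMSO vehicle for the same 9 hours. All cells were grown alike in DMEM with serum, and both groups are 1 cell line. The replicates are labelled as biological, but separate cultures are not mentioned, so p-values measure the spread between these libraries, which may be technical.

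Lysosomes are acidic organelles that digest proteins, sugars and lipids. The V-ATPase acidifies them: its peripheral V1 sector hydrolyses ATP, and the energy drives protons through the membrane-bound V0 sector. The MiT/TFE factors TFEB, TFE3 and MITF are basic helix-loop-helix proteins that switch on lysosomal genes through an element called CLEAR. In fed cells the kinase mTORC1, recruited to the lysosome surface by Rag GTPases, keeps TFEB and TFE3 in the cytoplasm, and starvation or lysosomal stress releases them to the nucleus. RNA sequencing reads the mRNA levels of these genes, and the location of the factors was not measured.

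The CLEAR element, the sequence that MiT/TFE factors are known to bind, was searched for in the promoters, and the matches are shown here. RefSeq windows of 250 bases before to 50 after each annotated start (GRCh38.p14) matched 28 of the 40 genes, with 44 windows. The unmatched genes were ASAH1, ATP6V0E1, ATP6V1A, ATP6V1B2, ATP6V1C1, ATP6V1H, CTSB, HEXA, LAMP2, NAGLU, PSAP and SGSH. The lines below are read 5′ to 3′ on the strand of the gene and end at or before the base ahead of the start site. Of the genes with the palindrome, MCOLN1 also has the inner bases at a separate site. Capitals mark the CLEAR palindrome, which is TCACGTGA with a G before it and a C after it, or its inner bases TCACGTGA where that outer pair differs.
ATP6V1G1, chr9:114587684-114587743, plus strand: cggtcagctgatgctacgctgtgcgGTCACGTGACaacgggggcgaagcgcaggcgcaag
GAA, chr17:80101478-80101537, plus strand: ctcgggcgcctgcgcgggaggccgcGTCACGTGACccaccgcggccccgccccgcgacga
GAA, chr17:80101523-80101580, plus strand: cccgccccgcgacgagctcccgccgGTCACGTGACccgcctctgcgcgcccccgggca
MCOLN1, chr19:7522557-7522614, plus strand: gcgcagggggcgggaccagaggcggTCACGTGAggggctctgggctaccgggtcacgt
MCOLN1, chr19:7522583-7522623, plus strand: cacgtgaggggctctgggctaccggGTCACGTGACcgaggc
LAMP1, chr13:113297185-113297238, plus strand: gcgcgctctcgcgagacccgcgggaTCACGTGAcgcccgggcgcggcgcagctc
ATP6V0D1, chr16:67481185-67481242, minus strand: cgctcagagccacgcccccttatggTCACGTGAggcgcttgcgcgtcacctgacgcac
CTSA, chr20:45891284-45891334, plus strand: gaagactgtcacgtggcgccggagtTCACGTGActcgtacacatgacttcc

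The palindrome lay in the windows of 3 of the 28 matched genes (10.7%), against 0.421% of all 27305 genes with a window and 0.799% of the 12769 tested genes with one. The inner bases TCACGTGA, which every palindrome contains, lay in 6 of 28 (21.4%), against 1.18% and 2.05%. The E-box CACGTG, which both contain, lay in 10 of 28 (35.7%), against 8.77% and 11.7%. In all, 6 motifs were searched for. The M-box CATGTG lay in 5 of 28 (17.9%), against 13.4% and 10.5%. The antioxidant response element TGACNNNGC, N being any base, lay in 15 of 28 (53.6%), against 16.1% and 18.8%. That is more members than any form of CLEAR, but this motif was also the most common of the 6 over all genes and over tested genes. The ATF4 element TGATGNAA lay in 0 of 28, against 4.46% and 2.99%. Both strands were searched, and genes with several starts have several windows. A match describes the letters and does not show binding. Of the 6 genes with TCACGTGA, ATP6V1G1 was higher after mitocurcumin, 0 were lower, and GAA, MCOLN1, LAMP1, ATP6V0D1 and CTSA did not pass the test. Over all tested genes, 14.7% were higher and 17.8% lower. The genes without a window include ATP6V1B2, ATP6V1C1, HEXA, PSAP and SGSH, which were higher, and ATP6V1A, which was lower. The promoters of those genes were not searched, so these counts cannot show whether genes with CLEAR changed more or less than others.

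Library totals ran from 23146822 to 29104681 counts, and the lowest count of any member in any library was 69, for TFEB. Of the receptor genes that define triple-negative tumours, ESR1 held at most 9 counts in any library and PGR at most 9. ERBB2 averaged 32.6 ± 2.67 CPM after mitocurcumin and 41.6 ± 6.17 CPM in vehicle (SD, n = 3 each), a call of lower at -0.35 ± 0.10 on the log2 scale. Receptor protein was not measured. EGFR averaged 688 ± 28.3 CPM after mitocurcumin and 565 ± 27.8 CPM in vehicle, a rise of 0.28 ± 0.06, while VIM and CD44 averaged 2337 and 2116 CPM after mitocurcumin and 2163 and 2095 CPM in vehicle. VIM and CD44 come from a list of 6 mesenchymal and epithelial genes, of which 0 were higher and 1 was lower. In their highest libraries KRT8, KRT18, EPCAM and CDH1, the epithelial genes of that list, held 242, 181, 24.3 and 3.15 CPM. Macrophages are rich in lysosomes. The 6 macrophage markers summed to 4.65 to 5.20 CPM in mitocurcumin libraries and 6.91 to 9.92 CPM in vehicle libraries, with TYROBP at 0 throughout and AIF1 and CD163 at no more than 2 counts in any library. CSF1R held 42 to 62 counts after mitocurcumin and 85 to 117 in vehicle, CD14 43 to 50 and 61 to 79, and PTPRC 18 to 33 and 15 to 36. The 4 endothelial markers summed to 9.21 to 10.6 CPM after mitocurcumin and 17.5 to 19.5 CPM in vehicle, and the 6 fibroblast markers to 18.6 to 22.8 CPM after mitocurcumin and 24.5 to 31.1 CPM in vehicle. PECAM1 held 159 to 175 counts after mitocurcumin and 269 to 353 in vehicle, and KDR 84 to 98 and 106 to 143. The other endothelial markers, CDH5 and VWF, held no more than 4 counts in any library. COL1A2 held 133 to 161 counts after mitocurcumin and 271 to 349 in vehicle, while COL1A1 held 234 to 238 and 199 to 219. All 6 libraries were made from the 1 cell line, and the labels name no other cell type. Whether any such cells took part in the results was not tested. Vehicle replicate 1 stood apart from the other vehicle libraries on the second principal component, at 31.3 against -17.1 and -17.2, and the number in the column heading of mitocurcumin replicate 2 broke the run of the others. Vehicle replicate 1 was the highest of all 6 libraries for 16 of the 40 members, and for 23.9% of all tested genes. For members, and for called genes of the further lysosomal lists, calls gained or lost without it are given beside each named gene. For other named genes, among them ERBB2 and EGFR, calls without it were not examined. ERBB2 was highest in vehicle replicate 1, at 48.6 CPM.

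Mitocurcumin left most lysosomal mRNAs close to their vehicle level and moved a minority by small amounts in both directions. TFE3, the sulfatase SGSH, the hexosaminidase subunit HEXA, the cholesterol exporter NPC1, the sphingolipid activator precursor PSAP and 4 subunits of the V1 sector rose. MITF, the acid lipase LIPA, the protease CTSC and the catalytic pump subunit ATP6V1A fell. The largest rise was 1.46-fold, of SGSH, and the largest fall, of MITF, was to 0.763 of the vehicle level. In RNA from whole cultures, a change in the number of cells that express a gene and a change in RNA per cell cannot be told apart.

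Calls, in either direction, were made where edgeR's quasi-likelihood test gave p below 0.05 after Benjamini-Hochberg adjustment over all 16481 genes. By that rule 9 of the 40 members (22.5%) were higher, where 14.7% of all tested genes were higher. A further 4 members (10.0%) were lower, where 17.8% of all tested genes were lower. These shares of all tested genes, 14.7% higher and 17.8% lower, are also the background of each count by role or list below. No role or list was tested against them. The 13 called members make up 32.5% of the 40, the same share as the 32.5% called in either direction among all tested genes. In 10 members every mitocurcumin library had more CPM than any vehicle library, and in 5 every one had less, against 21.2% and 23.7% of all tested genes. The median log2 fold change of mitocurcumin over vehicle was 0.01 over the members and -0.01 over all tested genes. Of the members, 19 (47.5%) changed by less than 0.1 on the log2 scale, as did 23.7% of all tested genes. The members were also more abundant than most genes, with a median of 82.3 CPM, against 16.7 CPM over all tested genes. A change of at least 2-fold was seen in 0 of the 40 members and in 4.31% of all tested genes. Among called genes it was seen in 0 of the 13 members and in 10.6% of all genes called. Without vehicle replicate 1, 13 members were higher and 4 lower, where 17.0% of all tested genes were higher and 19.0% lower.

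**Figure D1:**
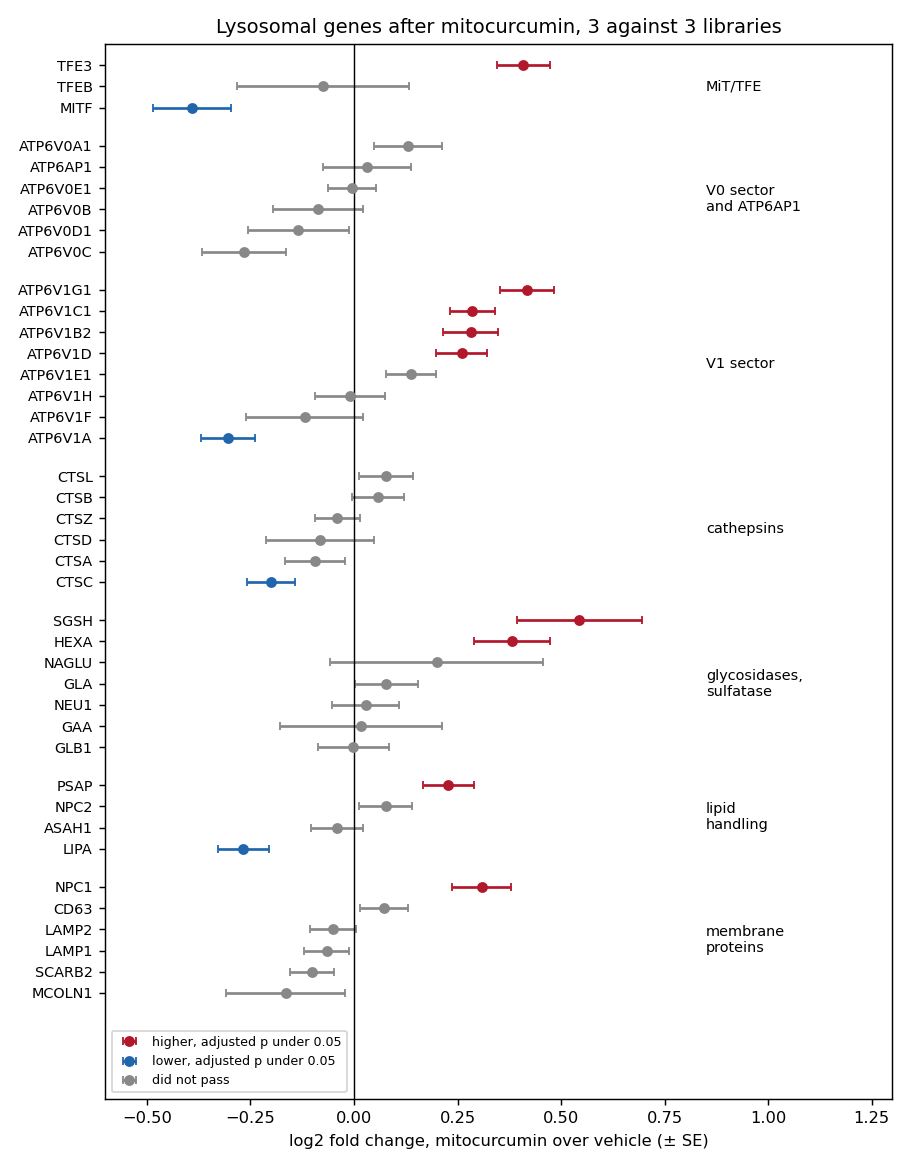
Log2 fold change of mitocurcumin over vehicle for each of the 40 genes (horizontal axis; points with bars of 1 SE, from edgeR over 3 and 3 libraries), grouped by role. The 9 genes that rose are red, the 4 that fell are blue and the rest did not pass the adjusted threshold of 0.05; all lie between -0.39 and 0.54.

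The MiT/TFE factors went in different directions. TFE3 (Entrez 7030, chromosome X, 49028726 to 49043357, GRCh38, minus strand) had 127, 133 and 117 CPM after mitocurcumin, against 94.3, 100.2 and 89.1 CPM in vehicle. Every treated library lay above every vehicle library. The log2 fold change was 0.41 ± 0.06 (SE, 3 and 3 libraries), and the edgeR adjusted p 1.05e-04. MITF, known as the master factor of melanocytes and also active on lysosomal genes (Entrez 4286, chromosome 3, 69739464 to 69968332, plus strand), had 25.5, 26.6 and 22.8 CPM after mitocurcumin, against 31.5, 31.1 and 35.5 CPM in vehicle. Its groups did not overlap either, in the opposite direction, at a log2 fold change of -0.39 ± 0.09 (edgeR adjusted p = 0.00409). TFEB (Entrez 7942, chromosome 6, 41683978 to 41736223, minus strand) was the least abundant member, at 2.99, 3.07 and 2.42 CPM after mitocurcumin and 3.26, 2.67 and 2.99 CPM in vehicle. Its groups overlapped and its change, -0.07 ± 0.21, did not pass, on 69 to 77 counts a library.

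Per length of the principal transcript, TFE3 was the main MiT/TFE mRNA of these cells. It made up 85.2% ± 0.355 of the summed CPM per kb of the 3 factors after mitocurcumin and 77.4% ± 2.18 in vehicle (SD, n = 3 each). MITF made up 12.0% ± 0.175 after mitocurcumin and 19.0% ± 1.96 in vehicle, and TFEB 2.78% ± 0.181 and 3.54% ± 0.427. These shares restate the changes of the single genes and were not tested apart from them. TFEC, the other member of the family, did not pass the filter on low counts. Melanocyte markers were scarce beside MITF: the 5 of them summed to 3.37 to 4.0 CPM after mitocurcumin and 3.29 to 3.46 CPM in vehicle.

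Several genes that control the MiT/TFE factors, most of them at the lysosome surface, were also higher or lower. Of 19 tested genes on this list, 5 were higher, 3 lower and 11 did not pass, with a median log2 fold change of 0.12. Over all tested genes, 14.7% were higher and 17.8% lower. FLCN, folliculin, which activates the Rag GTPases that bind TFEB and TFE3, had 60.2, 54.1 and 55.7 CPM after mitocurcumin, against 35.3, 26.9 and 25.5 CPM in vehicle, or 0.96 ± 0.10 higher on the log2 scale (edgeR adjusted p = 3.57e-06). RRAGC, one of those Rag GTPases, had 138, 124 and 124 CPM after mitocurcumin, against 73.0, 73.9 and 70.5 CPM in vehicle, a rise of 0.83 ± 0.06 (edgeR adjusted p = 2.7e-08). FNIP1, the partner of folliculin, rose by 0.64 ± 0.06, and LAMTOR3, part of the scaffold that holds the Rag GTPases, by 0.51 ± 0.08. ZKSCAN3, a zinc finger protein described as a repressor of autophagy and lysosome genes, rose by 0.33 ± 0.08. All 5 had groups that did not overlap. The lower genes were RPTOR, the substrate-binding subunit of mTORC1, at -0.49 ± 0.09, the calcineurin subunit PPP3CB, whose phosphatase acts on TFEB, at -0.26 ± 0.06, and the kinase MTOR itself at -0.17 ± 0.06. The call of MTOR was lost without mitocurcumin replicate 2 or 3 or vehicle replicate 2 or 3 (edgeR adjusted p between 0.0551 and 0.198). MTOR was called in 7 of 14 alternatives of library, scaling, filter, test or block. The related Rag genes RRAGA, RRAGB and RRAGD did not pass, at -0.24 ± 0.09, 0.19 ± 0.09 and 0.17 ± 0.09.

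**Figure D2:**
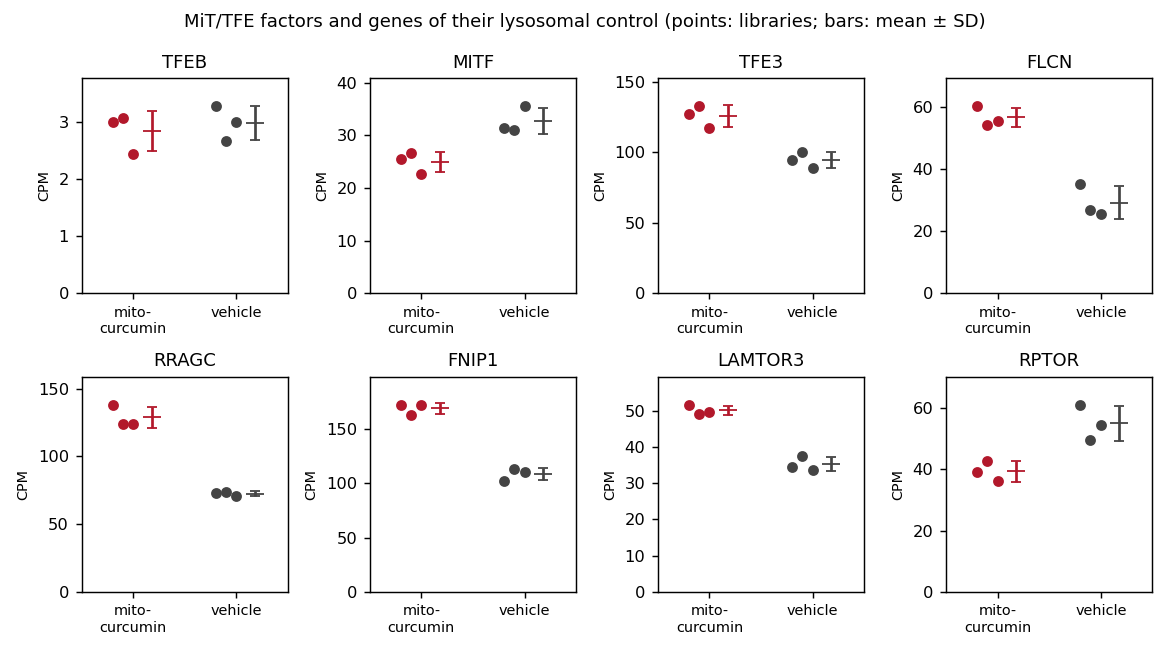
CPM (vertical axes, from 0) of TFEB, MITF, TFE3 and 5 genes of their control at the lysosome in each library (points), with the mean ± SD of the 3 mitocurcumin and the 3 vehicle libraries beside them. TFE3, FLCN, RRAGC, FNIP1 and LAMTOR3 lay higher in every mitocurcumin library than in any vehicle library, MITF and RPTOR lay lower, and TFEB overlapped.

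Calls among the V-ATPase subunits were counted by sector, and the difference between sectors was not tested. Of the 8 V1 members, 4 rose and 1 fell, with a median log2 fold change of 0.20. Of the 6 members of the V0 sector and its accessory subunit, 0 passed in either direction, with a median of -0.05. Of all tested genes, 14.7% were higher and 17.8% lower. ATP6V1G1, a subunit of the peripheral stalk and the carrier of the CLEAR palindrome shown above (Entrez 9550, chromosome 9, 114587769 to 114598879, plus strand), had 103, 104 and 118 CPM after mitocurcumin, against 77.9, 84.5 and 80.6 CPM in vehicle. It rose by 0.42 ± 0.07 (edgeR adjusted p = 1.12e-04), the largest change among the 14 pump members. ATP6V1C1, a stalk subunit involved in the reversible docking of V1 (Entrez 528, chromosome 8, 103021083 to 103073051, plus strand), had 214, 198 and 209 CPM, against 163, 177 and 169.6 CPM in vehicle, a rise of 0.29 ± 0.05 (edgeR adjusted p = 6.6e-04). The groups were apart for both genes.

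ATP6V1B2, a subunit of the hexamer that hydrolyses ATP (Entrez 526, chromosome 8, 20197381 to 20221696, plus strand), had 84.3, 83.2 and 84.0 CPM after mitocurcumin, against 73.6, 70.1 and 63.3 CPM in vehicle. It rose by 0.28 ± 0.07 (edgeR adjusted p = 0.00322). ATP6V1D, a subunit of the central rotor (Entrez 51382, chromosome 14, 67337872 to 67359804, minus strand), had 124, 121 and 131 CPM after mitocurcumin, against 97.7, 106 and 111 CPM in vehicle, a rise of 0.26 ± 0.06 (edgeR adjusted p = 0.00339). ATP6V1A, the catalytic subunit that alternates with ATP6V1B2 in the hexamer (Entrez 523, chromosome 3, 113747035 to 113812056, plus strand), went the other way. It had 88.3, 76.2 and 82.9 CPM after mitocurcumin, against 96.7, 105 and 104 CPM in vehicle, a change of -0.30 ± 0.07 (edgeR adjusted p = 0.00172). The groups of all 3 genes were apart, and the mRNAs of the partners ATP6V1A and ATP6V1B2 moved in opposite directions.

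The other V1 members did not pass. ATP6V1E1, a further stalk subunit, had 82.7, 75.8 and 78.5 CPM after mitocurcumin, all above the 71.9, 71.7 and 71.9 CPM in vehicle, but its change of 0.14 ± 0.06 missed the threshold (edgeR adjusted p = 0.0973). ATP6V1H, a regulatory subunit, changed by -0.01 ± 0.08, and ATP6V1F, a rotor subunit, by -0.12 ± 0.14. Vehicle replicate 1 held the highest value of ATP6V1F, 31.2 CPM, and vehicle replicate 2 the lowest, 19.1 CPM, on both sides of the mitocurcumin range of 20.9 to 24.0 CPM.

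In the V0 sector, ATP6V0C, the main subunit of the proton-carrying ring, had 37.0, 34.7 and 35.2 CPM after mitocurcumin, against 49.0, 35.4 and 44.2 CPM in vehicle. Its groups overlapped and its change of -0.27 ± 0.10 missed the threshold (edgeR adjusted p = 0.0567). It passed without vehicle replicate 2, at -0.38 (edgeR adjusted p = 0.00381, in a range of 0.00381 to 0.198), and was -0.16 without vehicle replicate 1. ATP6V0B, the other ring subunit examined, changed by -0.09 ± 0.11, and ATP6V0D1, which couples the ring to the rotor, by -0.13 ± 0.12. ATP6V0E1, a small membrane subunit, changed by -0.005 ± 0.06 at 111 CPM in both groups. ATP6V0A1, the arm through which protons enter, changed by 0.13 ± 0.08, and the accessory subunit ATP6AP1 by 0.03 ± 0.11. Vehicle replicate 1 was the highest of the 6 libraries for 5 of these 6 genes, against 1 of the 8 V1 members. Without it ATP6V0A1 and ATP6AP1 were called higher, at 0.21 and 0.20 (edgeR adjusted p = 0.0222 and 0.0260, in ranges of 0.0222 to 0.626 and 0.0260 to 0.952 over the alternatives).

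Summed over the 8 V1 members, the libraries held 755, 720.2 and 769 CPM after mitocurcumin, against 652, 671 and 665 CPM in vehicle. The 6 V0 and accessory members summed to 307, 292 and 304 CPM after mitocurcumin, against 343, 286 and 294 CPM in vehicle. The mean log2 CPM of V1 members exceeded that of V0 and accessory members by 0.83, 0.84 and 0.89 after mitocurcumin and by 0.51, 0.80 and 0.75 in vehicle. This difference does not depend on the scaling between libraries. Its lowest value, that of vehicle replicate 1, lay far from the other vehicle values, which were close to those of the mitocurcumin libraries.

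Among 9 other tested V-ATPase genes, which are 8 paralogs of members and the accessory gene ATP6AP2, 1 was higher and 2 were lower. ATP6V1E2, a germ cell form of subunit E, rose by 0.67 ± 0.23, and its call was lost without any 1 mitocurcumin library or without vehicle replicate 3 (edgeR adjusted p between 0.0666 and 0.121). ATP6V0A4 and TCIRG1, the kidney and osteoclast forms of the V0 arm, were lower. ATP6V0A4 had 10.7, 9.89 and 9.77 CPM after mitocurcumin, against 13.9, 14.2 and 14.2 CPM in vehicle, a change of -0.48 ± 0.11. TCIRG1 had 21.4, 21.4 and 21.6 CPM after mitocurcumin, against 37.3, 23.1 and 25.8 CPM in vehicle, a change of -0.42 ± 0.14. Without vehicle replicate 1 it was -0.18 and did not pass (edgeR adjusted p = 0.135, in a range of 0.00302 to 0.135), and the call was also lost without any 1 mitocurcumin library. Per transcript length, ATP6V0A1 made up 43.7% ± 0.916 of the 4 arm mRNAs after mitocurcumin and 36.4% ± 0.562 in vehicle (SD, n = 3 each). ATP6V0A4 made up 8.70% ± 0.269 after mitocurcumin and 11.1% ± 1.14 in vehicle. TCIRG1 made up 21.1%, 21.9% and 22.0% after mitocurcumin, against 31.3%, 23.2% and 23.8% in vehicle, the highest being that of vehicle replicate 1. These shares restate the changes of the single genes and were not tested apart from them, and ATP6V0A1 itself did not pass. ATP6V1G1, ATP6V1C1 and ATP6V1E1 each made up at least 96.6% of their paralog pair in every library.

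Among 10 genes that assemble the pump or couple its sectors, 2 rose and 2 fell. NCOA7, a TLDc-domain protein that binds the V-ATPase, rose 2-fold: it had 168, 163 and 164 CPM after mitocurcumin, against 76.8, 84.3 and 84.9 CPM in vehicle (log2 fold change 1.01 ± 0.06, edgeR adjusted p = 1.24e-09). TMEM199 and VMA21 both serve V0 assembly in the endoplasmic reticulum, and they moved in opposite directions, by 0.49 ± 0.10 and -0.41 ± 0.05. DMXL2, a subunit of the complex that reassembles V1 with V0, changed by -0.34 ± 0.08.

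**Figure D3:**
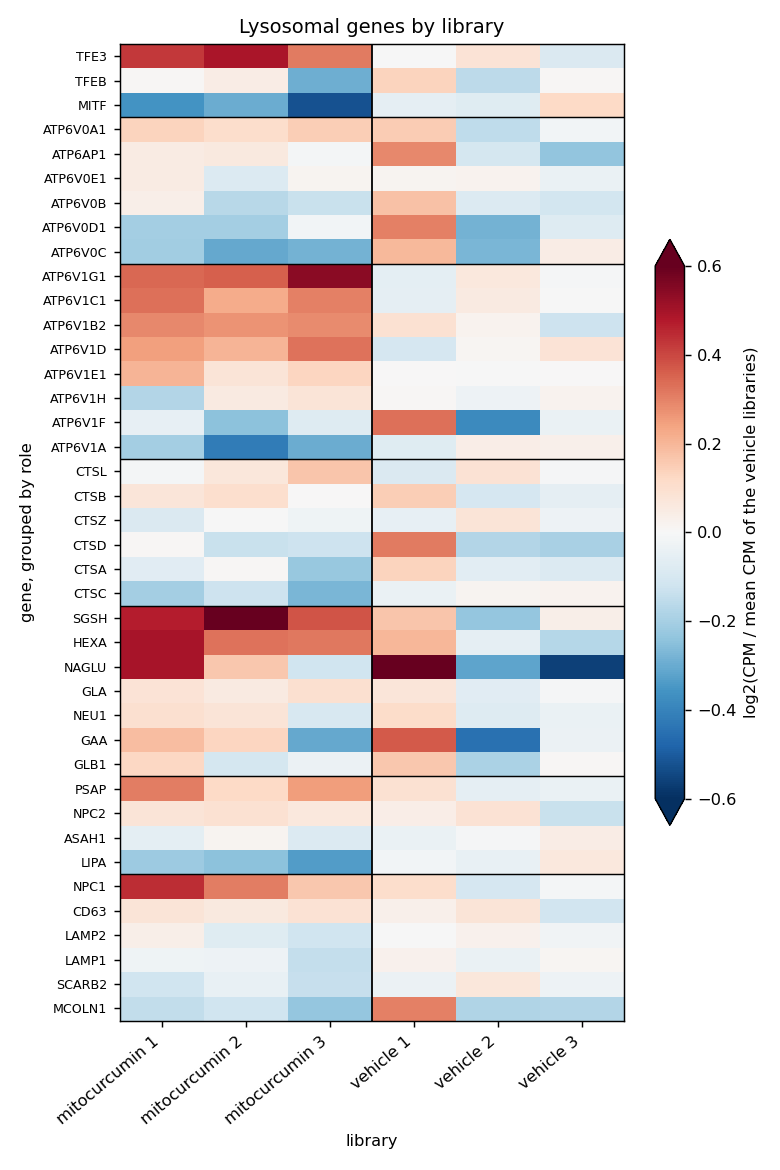
Log2 of CPM over the mean CPM of the 3 vehicle libraries for each of the 40 genes (rows, grouped by role) in each of the 6 libraries (columns, mitocurcumin left); the colour scale is cut at -0.6 and 0.6. The V1 genes ATP6V1G1, ATP6V1C1, ATP6V1B2 and ATP6V1D are red in all 3 mitocurcumin libraries, and vehicle replicate 1 is red for 5 of the 6 V0 and accessory genes and several hydrolases.

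The cathepsins, the main lysosomal proteases, hardly moved. Of 6 members 0 rose and 1 fell, with changes between -0.20 and 0.08. CTSC, an exopeptidase that activates other proteases (Entrez 1075, chromosome 11, 88293592 to 88337736, minus strand), had 105, 110.4 and 99.6 CPM after mitocurcumin, against 117, 122 and 122 CPM in vehicle. The groups were apart, with a change of -0.20 ± 0.06 (edgeR adjusted p = 0.0133), but its call was lost without mitocurcumin replicate 1 or 3 or vehicle replicate 2 or 3 (edgeR adjusted p = 0.0672, 0.0913, 0.0636 and 0.0602, in a range of 0.00175 to 0.0913). CTSD, an aspartic protease, had 287, 261 and 262 CPM after mitocurcumin, against 355, 253 and 249.7 CPM in vehicle. Its change of -0.08 ± 0.13 did not pass, and without vehicle replicate 1 it was 0.10.

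CTSB, a cysteine protease known for its release from damaged lysosomes, had 269.6, 275 and 257 CPM after mitocurcumin, against 284, 239 and 247 CPM in vehicle. Its change of 0.06 ± 0.06 did not pass, and without vehicle replicate 1 it was 0.14 and passed (edgeR adjusted p = 0.0278, in a range of 0.0278 to 0.901). CTSL, another cysteine endopeptidase, changed by 0.08 ± 0.06. The carboxypeptidases CTSZ and CTSA changed by -0.04 ± 0.05 and -0.09 ± 0.07.

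Of 7 glycosidases and sulfatases, 2 rose and 0 fell. SGSH, the sulfamidase that acts in the breakdown of heparan sulfate and is deficient in Sanfilippo syndrome type A (Entrez 6448, chromosome 17, 80209276 to 80220333, minus strand), had 9.58, 11.7 and 8.97 CPM after mitocurcumin, against 7.75, 5.88 and 7.08 CPM in vehicle. The groups were apart, with a change of 0.54 ± 0.15 (edgeR adjusted p = 0.0102), and the call was lost without mitocurcumin replicate 2 (0.44, edgeR adjusted p = 0.0750, in a range of 9.51e-04 to 0.0750). SGSH overlaps CARD14 on the opposite strand, whose counts came to 23.2% of those of SGSH and which changed by 1.09. Whether the counting used strand is not given in the sources used here, so their reads may not be separate. HEXA, the alpha subunit of the hexosaminidase deficient in Tay-Sachs disease (Entrez 3073, chromosome 15, 72340924 to 72376014, minus strand), had 61.2, 54.3 and 54.1 CPM after mitocurcumin, against 49.9, 41.8 and 38.6 CPM in vehicle. It rose by 0.38 ± 0.09 (edgeR adjusted p = 0.00398), with groups that did not overlap.

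The other 5 of these enzymes did not pass. NAGLU, which acts in the same heparan sulfate pathway as SGSH, had 7.80, 6.18 and 5.09 CPM after mitocurcumin, against 8.39, 4.45 and 3.75 CPM in vehicle, a change of 0.20 ± 0.26. Without vehicle replicate 1 its change was 0.62 and passed (edgeR adjusted p = 0.00850, in a range of 0.00850 to 0.998). GAA, the acid glucosidase deficient in Pompe disease, whose promoter holds 2 CLEAR palindromes, had 7.84, 7.54 and 5.58 CPM after mitocurcumin and 8.90, 5.07 and 6.74 CPM in vehicle, a change of 0.02 ± 0.20. The galactosidases GLA and GLB1 changed by 0.08 ± 0.08 and -0.002 ± 0.09, and the sialidase NEU1 by 0.03 ± 0.08. GLA overlaps the more abundant readthrough row RPL36A-HNRNPH2 on the opposite strand, and GLB1 overlaps TMPPE on the same strand.

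The lipid-handling members split. PSAP, the precursor of the saposins that present sphingolipids to their hydrolases (Entrez 5660, chromosome 10, 71816298 to 71851251, minus strand), was the most abundant member in CPM, with 463, 406 and 445 CPM after mitocurcumin, against 399, 359.8 and 363 CPM in vehicle. It rose by 0.23 ± 0.06 (edgeR adjusted p = 0.00833), and the call was lost without mitocurcumin replicate 1 (0.20, edgeR adjusted p = 0.0549, in a range of 5.29e-05 to 0.0549). LIPA, the acid lipase that frees cholesterol from its esters (Entrez 3988, chromosome 10, 89213572 to 89251775, minus strand), had 82.7, 81.0 and 76.3 CPM after mitocurcumin, against 95.1, 93.2 and 100.4 CPM in vehicle, a change of -0.27 ± 0.06 (edgeR adjusted p = 0.00257). The groups were apart for both. ASAH1, the acid ceramidase, changed by -0.04 ± 0.06, and NPC2, a soluble cholesterol carrier, by 0.08 ± 0.06.

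Of 6 membrane proteins 1 rose and 0 fell. NPC1, which takes cholesterol from NPC2 and moves it out of the lysosome (Entrez 4864, chromosome 18, 23531442 to 23586506, minus strand), had 162, 148 and 134 CPM after mitocurcumin, against 129, 112 and 119 CPM in vehicle. The groups were apart, with a rise of 0.31 ± 0.07 (edgeR adjusted p = 0.00334). NPC1 overlaps RMC1 on the opposite strand, whose counts came to 27.1% of its own and which changed by -0.06. The abundant coat proteins LAMP1 and LAMP2 changed by -0.07 ± 0.05 and -0.05 ± 0.05, the tetraspanin CD63 by 0.07 ± 0.06, and SCARB2, the receptor that delivers glucocerebrosidase, by -0.10 ± 0.05. SCARB2 had 202, 213 and 199.6 CPM after mitocurcumin, against 214, 230.2 and 215 CPM in vehicle, so its groups were apart without passing the test (edgeR adjusted p = 0.167). MCOLN1, the calcium channel whose opening activates TFEB through calcineurin, had 9.70, 9.89 and 9.14 CPM after mitocurcumin, against 13.2, 9.47 and 9.51 CPM in vehicle. Its change of -0.16 ± 0.14 did not pass, and without vehicle replicate 1 it was 0.01.

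Per kb of principal transcript, the members spanned a wide range. CD63, CTSZ, CTSD and PSAP stood highest, at 145 ± 1.48, 145 ± 4.35, 127 ± 7.09 and 153 ± 10.2 CPM per kb after mitocurcumin and 138 ± 9.48, 149 ± 7.05, 135 ± 28.1 and 130.2 ± 7.50 CPM per kb in vehicle (SD, n = 3 each). In vehicle their order was CTSZ, CD63, CTSD and PSAP, and neighbours in that order did not differ beyond their spread. SGSH, NAGLU, GAA and TFEB stood lowest, at 3.62 ± 0.510, 2.50 ± 0.536, 1.93 ± 0.340 and 1.20 ± 0.149 CPM per kb after mitocurcumin and 2.48 ± 0.342, 2.17 ± 0.983, 1.90 ± 0.530 and 1.26 ± 0.126 CPM per kb in vehicle. Among pump subunits in vehicle the level ran from 14.8 ± 1.58 CPM per kb for ATP6V0A1 to 77.5 ± 1.83 CPM per kb for ATP6V0E1. After mitocurcumin ATP6V1G1 headed the pump subunits, at 100.2 ± 7.75 CPM per kb, against 75.0 ± 3.09 CPM per kb in vehicle.

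**Figure D4:**
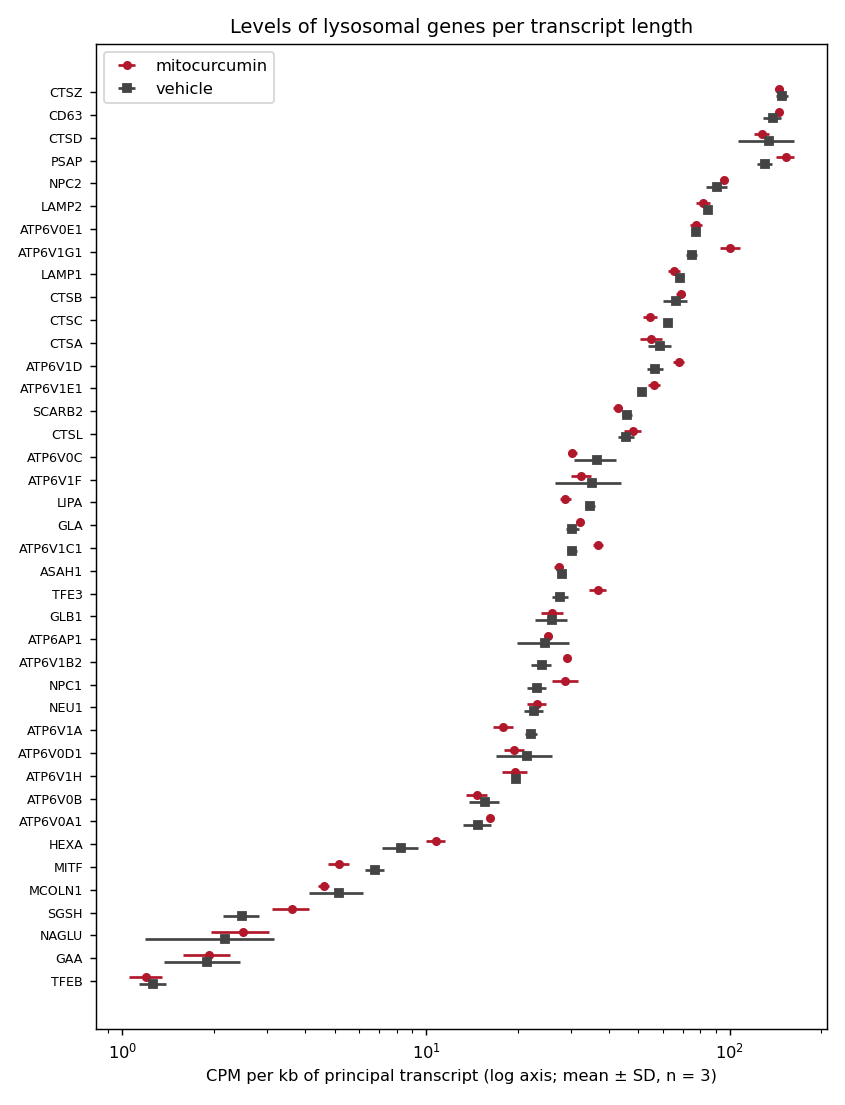
Mean CPM per kb of principal transcript (horizontal log axis; bars are SD, n = 3) of the 40 genes after mitocurcumin (red circles) and in vehicle (grey squares), ordered by the vehicle mean. The levels span TFEB at 1.26 to CTSZ at 149 CPM per kb in vehicle, and the groups of most genes lie close together.

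Further lysosomal genes, listed by role, were read from the same test. Of 35 other hydrolases 2 rose and 7 fell, with a median log2 fold change of -0.09. HYAL2, a hyaluronidase, had 5.98, 6.39 and 6.03 CPM after mitocurcumin, against 17.2, 12.1 and 13.3 CPM in vehicle, a change of -1.21 ± 0.15 (edgeR adjusted p = 7.31e-06). ARSB, a sulfatase of dermatan sulfate, changed by -0.62 ± 0.10. The risers were DNASE2, the lysosomal DNase, by 0.63 ± 0.10, and CTSK, a protease best known from osteoclasts, by 0.59 ± 0.20 at 4.93 CPM after mitocurcumin and 3.28 CPM in vehicle. The call of CTSK was lost without mitocurcumin replicate 1 or 2 or vehicle replicate 2 or 3 (edgeR adjusted p between 0.0966 and 0.125). Of the other osteoclast markers none was abundant enough to be tested.

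Of 22 other membrane proteins and transporters, 2 rose and 5 fell. LAMP3 and the channel MCOLN3, a paralog of MCOLN1, rose by 0.57 ± 0.19 and 0.42 ± 0.13, while the peptide transporter ABCB9 and the channel TPCN1 changed by -0.55 ± 0.20 and -0.29 ± 0.09. TPCN1 was -0.16 without vehicle replicate 1 and did not pass (edgeR adjusted p = 0.0808, in a range of 0.00266 to 0.127), nor did it without mitocurcumin replicate 2 or 3. LAMP3 lost its call without any 1 of the 6 libraries (edgeR adjusted p between 0.0518 and 0.105), ABCB9 without any 1 but vehicle replicate 2 (0.0834 to 0.121), and MCOLN3 without mitocurcumin replicate 2 or 3 or vehicle replicate 3 (0.0789 to 0.0997). Of 13 genes that sort enzymes to lysosomes, 1 rose and 3 fell. GNPTAB, which makes the mannose 6-phosphate tag, had 44.3, 41.7 and 41.1 CPM after mitocurcumin, against 56.5, 64.2 and 63.4 CPM in vehicle, a change of -0.54 ± 0.07 (edgeR adjusted p = 3.26e-05). The sorting receptors SORT1 and IGF2R changed by -0.42 ± 0.05 and -0.32 ± 0.05, M6PR, the other mannose 6-phosphate receptor, by -0.004 ± 0.06, and VPS35 of the retromer rose by 0.16 ± 0.06. The call of VPS35 was lost without mitocurcumin replicate 1 or 3 or vehicle replicate 1 or 2 (edgeR adjusted p between 0.0696 and 0.135).

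Autophagy genes and genes of the response to lysosomal damage were higher or did not pass. Of 10 tested autophagy genes listed as TFEB targets, 5 rose and 0 fell, the largest rises being 1.54 ± 0.08 for GABARAPL1 and 1.25 ± 0.05 for MAP1LC3B, both of the ATG8 family. Of 11 tested genes that sense or repair damaged lysosomes, 5 rose and 0 fell. In each list, 1 gene that did not pass had every mitocurcumin library below every vehicle library. Among all tested genes, 14.7% were higher and 17.8% lower. TRIM16, a ubiquitin ligase recruited to ruptured lysosomes, had 94.9, 86.1 and 86.4 CPM after mitocurcumin, against 59.5, 43.0 and 42.7 CPM in vehicle, a rise of 0.88 ± 0.11 (edgeR adjusted p = 1.82e-05). LGALS3, a galectin that binds sugars exposed by the rupture, had 108, 112 and 118 CPM after mitocurcumin, against 78.4, 82.4 and 77.3 CPM in vehicle, a rise of 0.50 ± 0.06 (edgeR adjusted p = 5.74e-06). Over all 129 tested genes of the lists outside the members, 23 were higher and 22 lower, with a median log2 fold change of -0.01. These counts stand beside the same 14.7% higher and 17.8% lower of all tested genes.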

How the data were processed

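Polyadenylated RNA of MDA-MB-231 cells was sequenced in 3 mitocurcumin and 3 vehicle libraries. Trizol extraction and a stranded KAPA kit are named in the labels' protocols. The authors' deposited raw values are per RefSeq gene, per the file headers, and were read as estimated counts since they are fractional and not scaled between libraries. Set against them, the authors' deposited normalized values are on a log2 scale, equal to log2 of the raw value over 1 factor per library where above 0. The submitters' processing notes name the build GRCh38. For the aligner and counter, and for the use of strand, nothing is given in the sources used here.

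The estimated counts were rounded to whole numbers, since the design had assumed whole counts, and went into the robust quasi-likelihood F-test of edgeR 4.0.16 under R 4.3.3 (TMM scaling, group as the only term, filterByExpr at min.count 10 and min.total.count 15). P-values were two-sided and adjusted by Benjamini-Hochberg over all tested genes. The SE is the coefficient over the square root of F. CPM used TMM-scaled totals. The biological coefficient of variation was 8.43%. Transcript length was that of the longest APPRIS principal transcript in GENCODE 29. Alternatives used DESeq2 1.42.0 and limma 3.58.1 among others. The edgeR test was also run on simulated data with planted changes of 1.5-fold and 2-fold. Those are larger than the change of any member, so that run does not cover changes as small as theirs.

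The members, gene lists and tests were chosen with earlier results of these data known. All members are named, and other genes by rule: from each list the 2 largest rises and 2 largest falls among changed genes averaging 1 CPM or more, and any changed gene of the list on control of MiT/TFE factors. IGF2R, M6PR, RRAGA, RRAGB and RRAGD fall outside that rule and were chosen after their values were seen. Of the listed symbols 1 was not found in the table.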

Additional observations from a re-analysis of the deposited data

How the results depend on the processing

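The counts of members called were 9 higher and 4 lower, and between 8 and 9 higher and between 3 and 5 lower over the 9 alternatives of scaling, filter, test, block and threshold. Leaving out 1 library gave 8 to 13 members higher and 3 to 4 lower, 1850 to 2872 genes higher and 2165 to 3216 lower over all genes, and 17 to 25 higher and 15 to 22 lower among the related genes. Of the 13 called members, 10 were called in each of the 14 alternatives at the same threshold; CTSC, PSAP and SGSH were the exceptions. ATP6V0C passed in 3 of the 14: with no filter on low counts, with the replicate block and without vehicle replicate 2. Of the 45 called related genes, 31 were called in each of the 14 alternatives, chosen after seeing the data, and 0 changed sign in any. MTOR, LAMP3 and ABCB9 were called in 7 of the 14, and ATP6V1E2, TCIRG1 and VPS35 in 9 of the 14.

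None of the 13 called members changed sign in any of the 14 alternatives. Among the rest, GLB1 was 0.00767 with DESeq2 size factors, 0.00171 with no filter, 0.0206 with a filter of 1 CPM, 0.00429 with DESeq2, 0.00421 with limma voom and 0.000417 with the replicate block. ATP6V0E1 was 0.00524 with DESeq2 size factors, 0.0181 with the CPM filter and 0.00216 with DESeq2, and ATP6V1H was 0.0129 with the CPM filter. With 1 library left out, log2 changes ran from -0.14 to 0.0292 for TFEB, -0.16 to 0.10 for CTSD, -0.0635 to 0.00532 for CTSZ, -0.0835 to 0.0866 for GLB1, -0.24 to 0.0118 for MCOLN1, -0.00392 to 0.0868 for NEU1, -0.16 to 0.24 for GAA, -0.0599 to 0.20 for ATP6AP1, -0.14 to 0.0104 for ATP6V0B, -0.25 to 0.0438 for ATP6V0D1, -0.0185 to 0.044 for ATP6V0E1, -0.27 to 0.0806 for ATP6V1F and -0.0576 to 0.0788 for ATP6V1H. The cause of these moves was not tested.

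With the replicate number as a block, 9 members were higher and 5 lower, ATP6V0C being the addition. Whether same-numbered libraries shared more than the number is not given in the sources used here. Their deviations from the group means correlated at 0.10, 0.02 and -0.01, and those of the other pairs between -0.11 and 0.09. With 3 libraries a group, such correlations cannot decide it. TFEB, NAGLU, GAA and SGSH had the fewest counts of the members and the widest errors. For NAGLU, vehicle replicate 1 also stood apart, at 8.39 CPM against 4.45 and 3.75 CPM in the other vehicle libraries. Changes as small as those of most members can be missed with 3 libraries a group.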
